A study of Rattus norvegicus with 12 samples.

Results

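The glycolysis and 2,3-BPG shunt genes described here were *Hk1*, *Gpi*, *Pfkl*, *Aldoa*, *Tpi1*, *Pgk1*, *Eno1*, *Pklr*, *Pkm* and *Bpgm*. They were taken from the expression table by name, and the list was chosen with earlier results of these data known. Of these 10 genes, 9 had a row among the 29539 genes of the table, and all 9 had enough counts to be tested. *Pgk1* had no row of that name and was not analysed here. The enzymes were grouped as forms typical of red cells (*Pklr*, *Bpgm* and *Hk1*) and forms common in leukocytes (*Pkm* and *Eno1*). *Gpi*, *Pfkl*, *Aldoa* and *Tpi1* make up the remaining steps. The groups do not divide the enzymes strictly by cell type, since *Aldoa* is also the aldolase of red cells and *Eno1* is widely expressed.

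RBCs were purified from the blood of wild type Wistar rats, 11 weeks old, after storage of whole blood with CPDA, a citrate, phosphate, dextrose and adenine anticoagulant, in a refrigerator. The 3 storage conditions were no storage (Cont), 10 days (10 d) and 20 days (20 d), with 4 libraries each, and CPDA was present in all of them. The RBCs were obtained by centrifugation, removal of plasma and buffy coat and washing, and rRNA-depleted total RNA was sequenced. Aliquots from each rat went to every storage condition, but which rat stands behind a replicate number is not given in the sources used here. The libraries were therefore compared as unpaired, and a fit with the replicate number as a block is given as an alternative.

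Mature red cells have no mitochondria and make their ATP by glycolysis, which turns glucose into pyruvate and lactate. In the 2,3-BPG shunt, bisphosphoglycerate mutase (*Bpgm*) diverts an intermediate of glycolysis to 2,3-bisphosphoglycerate, which lowers the oxygen affinity of hemoglobin. Several steps are run by different isoenzymes in different cells, and the pyruvate kinase of red cells comes from *Pklr* whereas that of leukocytes comes from *Pkm*.

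The libraries held between 65735930 (a Cont library) and 85996710 counts (also Cont), of which the 4 most abundant genes took 85.3% to 88.0%. Levels are given as TPM, transcript levels corrected for gene length and set to the same sum in each library, with the SD over 4 libraries. Differences are log2 fold changes of counts with their standard error (SE), obtained after TMM scaling by edgeR's quasi-likelihood test and called at a Benjamini-Hochberg adjusted p under 0.05 over the 8382 genes tested. The p-values measure the spread between these libraries. Storage and the day of purification cannot be told apart, and in such bulk samples fewer cells of a type and less RNA per cell cannot be told apart either. Scaling by library size alone gave shifts in the median gene's log2 fold change of -0.36 (10 d against Cont) and -0.39 (20 d against Cont), so that rises and falls against Cont are relative to the scaling. By TMM, 659 genes were called higher and 476 lower at 10 d, against 98 higher and 1899 lower by library size alone. The same counts at 20 d were 1075 higher and 1768 lower by TMM, against 99 higher and 2911 lower by library size alone.

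Transcripts of *Bpgm* far outnumbered those of every other enzyme measured. *Bpgm* (ENSRNOG00000010133, mRatBN7.2 chromosome 4, 63140018 to 63168581, plus strand) ranked 20 among all genes by mean TPM. It made up 98.3% to 98.7% of the summed TPM of the 9 genes in the Cont libraries, 99.0% to 99.1% at 10 d and 99.2% to 99.4% at 20 d. In Cont, *Aldoa* followed at 5.58 ± 0.951 TPM (SD, n = 4) and *Hk1* at 4.04 ± 0.481 TPM, and their libraries did not overlap. Next came *Pkm* at 2.61 ± 1.08 TPM, *Eno1* at 1.45 ± 0.627 TPM, *Pklr* at 0.922 ± 0.0558 TPM, *Gpi* at 0.907 ± 0.140 TPM and *Tpi1* at 0.621 ± 0.237 TPM, and from *Hk1* to *Tpi1* each gene overlapped with its neighbour in this order. *Pfkl* was lowest at 0.273 ± 0.0804 TPM, below every library of *Tpi1*. At 20 d the order was *Bpgm*, *Hk1*, *Aldoa*, *Pklr*, *Eno1*, *Pkm*, *Pfkl*, *Gpi* and *Tpi1*, and the libraries of *Hk1* at 4.11 ± 0.367 TPM lay above those of *Aldoa* at 2.57 ± 0.516 TPM. From *Pklr* downwards, neighbours in the 20 d order overlapped.

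**Figure D1:**
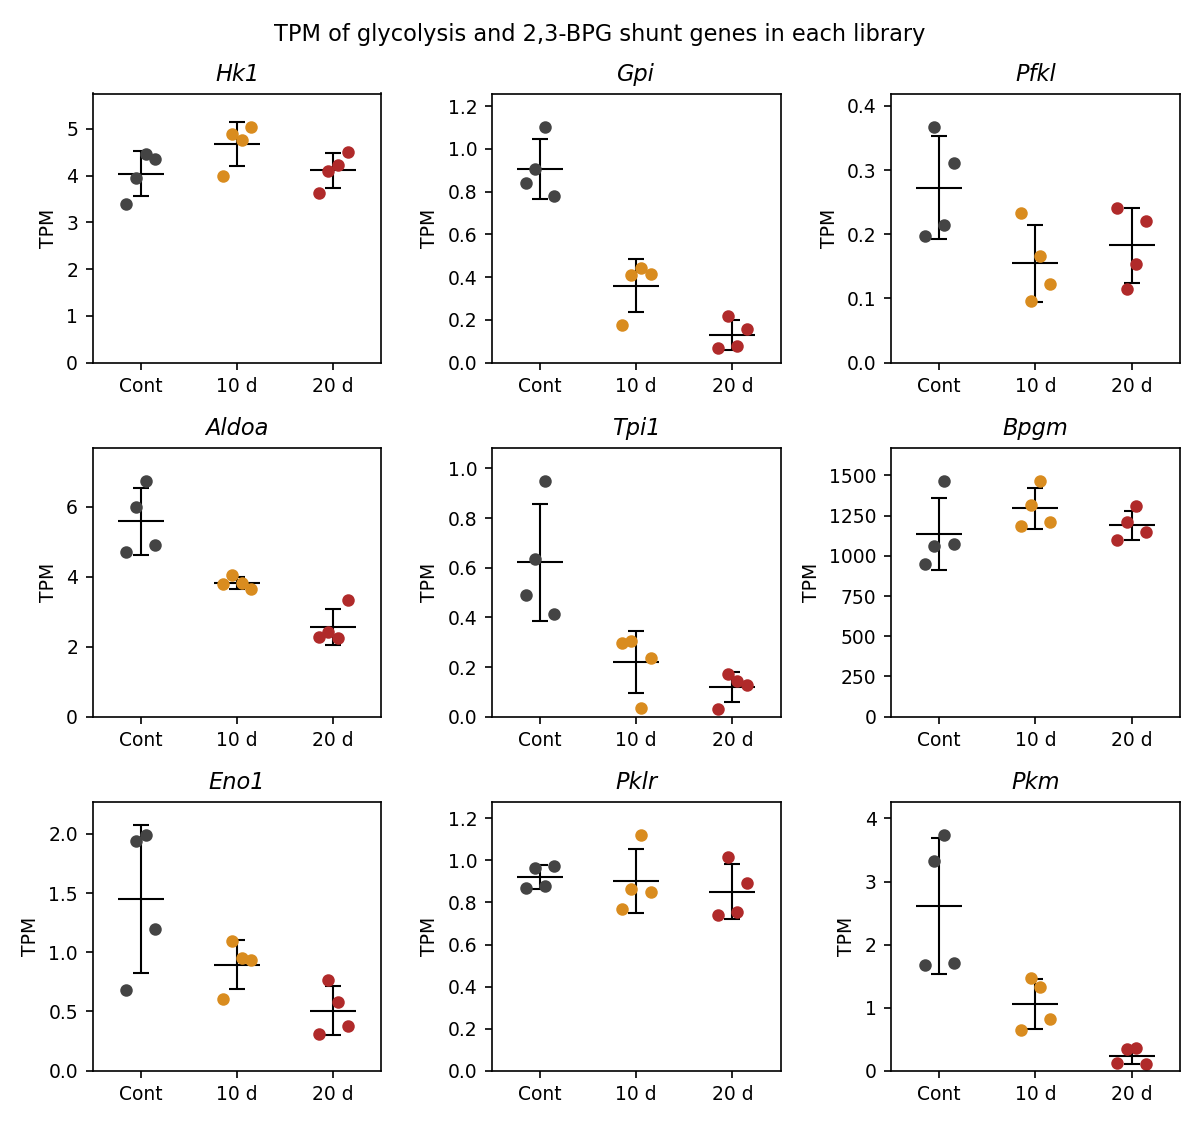
TPM of each of the 9 genes (y axes from 0, a scale for each gene) in the 4 libraries of Cont, 10 d and 20 d; points are libraries, horizontal bars are means and error bars are SD. *Pkm*, *Gpi*, *Aldoa* and *Tpi1* lie lower in all 20 d libraries than in all Cont libraries, while the TPM of *Bpgm*, *Hk1* and *Pklr* overlaps between the conditions.

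Promoter windows are shown for *Bpgm* and *Hk1*, which moved together in the comparisons that follow, and for both pyruvate kinase genes, which did not. The windows come from RefSeq (GRCr8) and run from 250 bases before to 50 bases after an annotated start, and all 9 genes matched by symbol, with 13 windows. Capitals mark the letters CACCC, which the erythroid factor KLF1 recognises, and AGATAA, which GATA1 recognises, on either strand. The third motif searched was ACGTG, the core bound by hypoxia-inducible factors, for which CACGTG counts on both strands and which is also in capitals. Positions count from 1 at the start, with -1 as the base before it. The *Bpgm* window is chr4:64107027-64107326 (plus strand), with CACCC in reverse at 42. *Hk1* has 2 windows, both shown. Window 1 is chr20:30842023-30842322 (minus strand), with ACGTG at -245, CACCC in reverse at -238 and CACCC at -104, and window 2 is chr20:30874765-30875064 (minus strand), with AGATAA at -219. The *Pklr* window is chr2:176841014-176841313 (plus strand), with CACCC in reverse at 36. The *Pkm* window is chr8:68953385-68953684 (plus strand), with CACCC in reverse at -127.
Bpgm: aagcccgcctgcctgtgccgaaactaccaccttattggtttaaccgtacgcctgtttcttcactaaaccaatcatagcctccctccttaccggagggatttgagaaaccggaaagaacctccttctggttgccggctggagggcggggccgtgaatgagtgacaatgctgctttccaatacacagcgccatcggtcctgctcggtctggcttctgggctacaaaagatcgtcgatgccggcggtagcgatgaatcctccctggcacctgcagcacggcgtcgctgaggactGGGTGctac
Hk1 window 1: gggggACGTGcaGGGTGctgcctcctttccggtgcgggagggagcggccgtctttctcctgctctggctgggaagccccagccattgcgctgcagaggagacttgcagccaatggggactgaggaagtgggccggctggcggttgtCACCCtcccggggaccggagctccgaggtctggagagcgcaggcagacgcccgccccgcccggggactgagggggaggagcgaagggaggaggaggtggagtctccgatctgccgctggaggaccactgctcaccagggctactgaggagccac
Hk1 window 2: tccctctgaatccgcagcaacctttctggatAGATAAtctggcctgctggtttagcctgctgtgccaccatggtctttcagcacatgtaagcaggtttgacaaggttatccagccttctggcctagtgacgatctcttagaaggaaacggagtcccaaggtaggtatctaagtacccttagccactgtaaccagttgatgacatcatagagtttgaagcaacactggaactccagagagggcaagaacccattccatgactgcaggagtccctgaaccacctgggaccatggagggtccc
Pklr: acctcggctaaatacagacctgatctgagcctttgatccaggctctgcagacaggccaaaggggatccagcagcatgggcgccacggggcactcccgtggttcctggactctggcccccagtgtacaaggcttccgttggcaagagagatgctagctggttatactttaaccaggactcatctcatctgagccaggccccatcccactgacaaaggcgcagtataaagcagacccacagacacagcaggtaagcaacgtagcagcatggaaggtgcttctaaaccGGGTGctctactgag
Pkm: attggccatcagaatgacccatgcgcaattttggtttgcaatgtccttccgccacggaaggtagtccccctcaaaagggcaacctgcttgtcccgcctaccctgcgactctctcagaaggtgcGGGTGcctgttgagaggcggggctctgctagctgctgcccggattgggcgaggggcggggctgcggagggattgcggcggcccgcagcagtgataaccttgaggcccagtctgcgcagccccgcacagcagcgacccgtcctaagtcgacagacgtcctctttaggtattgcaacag
CACCC stood in 8 of the 13 windows, from 6 genes, and in 54.9% of 33469 rat promoter windows of the same length. AGATAA stood in 1 window and in 11.6% of all promoters. Variants of the motifs were not searched and are not in capitals. ACGTG stood in 4 windows, from 4 genes, and in 19.3% of all promoters. A match describes the letters of the window and not a site in use. Which annotated start the transcripts of these libraries come from was not tested, so a window need not be the promoter used in red cells.

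Among the red cell forms, *Bpgm* and *Hk1* were higher in stored blood than in Cont by TMM scaling, while from 10 d to 20 d they changed by -0.01 and -0.07 on the log2 scale and did not pass the test. *Bpgm* measured 950, 1060, 1465 and 1076 TPM in Cont replicates 1 to 4, 1185, 1318, 1465 and 1213 TPM at 10 d, and 1096, 1209, 1309 and 1147 TPM at 20 d. In TPM these groups overlapped, with Cont replicate 3 as high as the highest 10 d library. Scaled by TMM, in contrast, *Bpgm* measured 891 ± 93.5 CPM (counts relative to the scaled library size; SD, n = 4) in Cont, 1339 ± 70.7 at 10 d and 1327 ± 61.5 at 20 d, and all stored libraries lay above all Cont libraries. The log2 fold change of *Bpgm* against Cont was 0.59 (SE 0.08, adjusted p = 6.2e-05) at 10 d and 0.57 (SE 0.08, adjusted p = 1.8e-05) at 20 d.

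*Hk1* (ENSRNOG00000046891, chromosome 20, 30230486 to 30332131, minus strand) encodes the hexokinase that phosphorylates glucose on its entry into glycolysis. It measured 3.40, 3.95, 4.46 and 4.35 TPM in Cont, 3.98, 4.89, 4.75 and 5.03 TPM at 10 d, and 3.62, 4.09, 4.22 and 4.50 TPM at 20 d. These groups also overlapped in TPM. In CPM scaled by TMM all stored libraries lay above all Cont libraries, while 10 d and 20 d overlapped. Its log2 fold change against Cont was 0.60 (SE 0.08, adjusted p = 0.000106) at 10 d and 0.53 (SE 0.08, adjusted p = 9.4e-05) at 20 d. By library size alone neither rise passed the test. *Bpgm* then changed by 0.23 (adjusted p = 0.128) at 10 d and 0.18 (adjusted p = 0.196) at 20 d, and *Hk1* by 0.25 (adjusted p = 0.104) and 0.14 (adjusted p = 0.323). With the 20 most abundant genes left out of the library size, *Bpgm* was higher by 0.32 and 0.30 and *Hk1* by 0.33 and 0.25, and both were called.

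*Pklr* (ENSRNOG00000020420, chromosome 2, 174543039 to 174551870, plus strand) measured 0.869, 0.965, 0.878 and 0.975 TPM in Cont, 0.770, 0.865, 1.12 and 0.852 TPM at 10 d, and 0.742, 1.02, 0.756 and 0.895 TPM at 20 d. The groups overlapped in TPM, and its CPM scaled by TMM was higher in all stored libraries than in all Cont libraries. Its log2 fold change was 0.34 (SE 0.15, adjusted p = 0.157) at 10 d and 0.38 (SE 0.15, adjusted p = 0.0610) at 20 d, neither of which passed edgeR's quasi-likelihood test. The 20 d value passed without Cont replicate 1 (0.46, adjusted p = 0.0299) or without 20 d replicate 3 (0.45, adjusted p = 0.0396). By library size alone it was -0.0023, the opposite sign.

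Of the 9 genes, 2 rose and 0 fell at 10 d, where 7.86% of all genes tested were called higher, 5.68% lower and 13.5% in either direction. By library size alone 0 rose and 4 fell at 10 d and 0 rose and 5 fell at 20 d. Of all 8382 genes tested, that scaling called 98 higher and 1899 lower at 10 d, and 99 higher and 2911 lower at 20 d. The median log2 fold changes of the 9 genes were then -0.64 and -0.998, beside -0.35 and -0.39 over all genes tested. By TMM, *Pkm* and *Gpi* stood just outside the threshold at 10 d in edgeR's test, with adjusted p of 0.0508 and 0.0517. With the replicate number as a block in that test, both were called lower (adjusted p = 4.2e-05 and 0.0245). At 20 d against Cont, 2 rose and 5 fell, beside 12.8% higher, 21.1% lower and 33.9% in either direction among all genes. Between 10 d and 20 d, 0 rose and 3 fell, beside 3.38% higher, 12.6% lower and 16.0% in either direction. Libraries of both conditions were apart in CPM scaled by TMM for 3 genes that were higher and 1 that was lower at 10 d against Cont, beside 9.6% and 8.17% of all genes, and for 3 that were higher and 4 that were lower at 20 d, beside 11.4% and 20.0%. From 10 d to 20 d they were apart for 0 that were higher and 1 that was lower, beside 6.26% and 13.4%. The median log2 fold change of the 9 genes was -0.27 at 10 d, -0.61 at 20 d and -0.47 between 10 d and 20 d, beside medians of -0.0012, -0.0053 and -0.08 over all genes tested. In the test of any difference among the 3 conditions, at the adjusted p under 0.0001 that the study used, *Bpgm* (1.7e-05), *Hk1* (4.7e-05) and *Pkm* (1.2e-05) passed edgeR's quasi-likelihood test, 3 of 9 beside 6.13% of all genes.

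**Figure D2:**
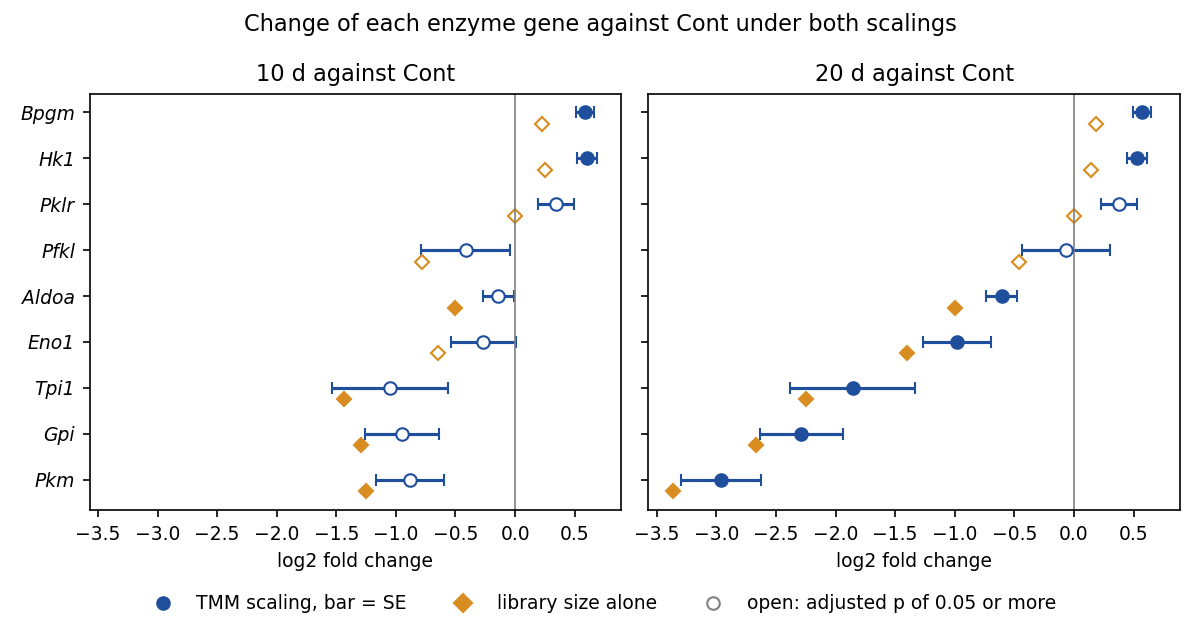
Log2 fold change of each of the 9 genes (x axis) at 10 d (left) and 20 d (right) against Cont; circles are values scaled by TMM with bars of 1 SE, diamonds are values by library size alone, and filled symbols have an adjusted p under 0.05. The falls at 20 d are called under both scalings, and of these 2 scalings the rises of *Bpgm* and *Hk1* are called by TMM.

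The forms common in leukocytes fell at 20 d against Cont. *Pkm* (ENSRNOG00000011329, chromosome 8, 60057402 to 60079599, plus strand), the pyruvate kinase of most cells other than red cells and liver, measured 1.67, 3.32, 3.74 and 1.70 TPM in Cont, 0.646, 1.47, 1.33 and 0.813 TPM at 10 d, and 0.128, 0.347, 0.354 and 0.109 TPM at 20 d. All 20 d libraries lay below all 10 d libraries, and all 10 d libraries lay below all Cont libraries in TPM, although the CPM of 10 d and Cont scaled by TMM overlapped. The log2 fold change was -0.88 (SE 0.29, adjusted p = 0.0508) at 10 d, which did not pass, and -2.96 (SE 0.34, adjusted p = 3.2e-06) at 20 d, a level 7.80-fold lower than in Cont. Of 22 alternatives 17 called the fall at 10 d, with adjusted p from 9.3e-07 to 0.161 over all of them. It was not called without Cont replicate 2 or 3 or 10 d replicate 1, 3 or 4. From 10 d to 20 d the fall was -2.08 (SE 0.34, adjusted p = 0.000489).

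*Eno1* (ENSRNOG00000017895, chromosome 5, 160719951 to 160731336, plus strand), the widely expressed enolase, measured 0.684, 1.94, 1.99 and 1.19 TPM in Cont, 0.608, 1.10, 0.949 and 0.933 TPM at 10 d, and 0.313, 0.764, 0.580 and 0.373 TPM at 20 d. Its groups overlapped, since Cont replicate 1 was lower than 20 d replicate 2. Its difference at 20 d, -0.98 on the log2 scale (SE 0.29, adjusted p = 0.0129), passed edgeR's quasi-likelihood test. Without Cont replicate 2 it was -0.79 (adjusted p = 0.0578) and did not pass. The values at 10 d (-0.27, adjusted p = 0.621) and from 10 d to 20 d (-0.72, adjusted p = 0.107) did not pass.

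The remaining enzymes, apart from *Pfkl*, were also lower at 20 d. *Gpi* (ENSRNOG00000023150, chromosome 1, 86828216 to 86856086, minus strand), which turns glucose 6-phosphate into fructose 6-phosphate, measured 0.840, 0.907, 1.10 and 0.779 TPM in Cont, 0.176, 0.409, 0.442 and 0.414 TPM at 10 d, and 0.0697, 0.217, 0.0770 and 0.155 TPM at 20 d. All stored libraries lay below all Cont libraries, and 10 d and 20 d overlapped. Its log2 fold change was -0.95 (SE 0.31, adjusted p = 0.0517) at 10 d and -2.29 (SE 0.35, adjusted p = 6.3e-05) at 20 d. Of 21 alternatives 11 called the fall at 10 d, with adjusted p from 0.0103 to 0.153, among them DESeq2 (-1.01, adjusted p = 0.0196). It was called without 20 d replicate 1, 2 or 3 and not without any one of the other libraries. The fall of -1.34 (SE 0.36, adjusted p = 0.0173) from 10 d to 20 d did not pass without 20 d replicate 1 (-1.13, adjusted p = 0.0532) or 20 d replicate 3 (-1.15, adjusted p = 0.0539).

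*Aldoa* (ENSRNOG00000052802, chromosome 1, 181402275 to 181406182, minus strand), the aldolase of muscle and red cells, measured 4.70, 5.98, 6.73 and 4.91 TPM in Cont, 3.79, 4.05, 3.83 and 3.64 TPM at 10 d, and 2.26, 2.41, 2.26 and 3.33 TPM at 20 d. In TPM the conditions did not overlap. The log2 fold change by TMM was -0.14 (SE 0.13, adjusted p = 0.561) at 10 d and -0.61 (SE 0.13, adjusted p = 0.00154) at 20 d, a smaller fall than the difference in TPM. By library size alone *Aldoa* fell at 10 d as well, as the plot of both scalings shows. The fall of -0.47 (SE 0.13, adjusted p = 0.0237) from 10 d to 20 d did not pass edgeR's test when 10 d replicate 1 or 2 or 20 d replicate 1, 2 or 3 was left out, with adjusted p from 0.0526 to 0.0778, nor with no filter on low counts (-0.39, adjusted p = 0.0679).

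*Tpi1* (ENSRNOG00000015290, chromosome 4, 157615386 to 157619541, minus strand), which interconverts both products of aldolase, measured 0.488, 0.634, 0.949 and 0.414 TPM in Cont, 0.298, 0.306, 0.0368 and 0.235 TPM at 10 d, and 0.0329, 0.170, 0.145 and 0.126 TPM at 20 d. All stored libraries lay below all Cont libraries in TPM, and the summed counts behind these values were 139, 52 and 28. Its fall of -1.86 (SE 0.52, adjusted p = 0.0100) at 20 d passed and that of -1.05 (SE 0.49, adjusted p = 0.188) at 10 d did not. *Pfkl* (ENSRNOG00000001214, chromosome 20, 10664272 to 10686315, plus strand), a subunit of phosphofructokinase, rested on 112, 64 and 78 summed counts and ranged from 0.0960 to 0.367 TPM over the 12 libraries. None of its comparisons passed the test, and the 20 d value against Cont was -0.07 (log2, SE 0.37) with an adjusted p of 0.917. *Aldoa*, *Eno1*, *Tpi1*, *Ldha*, *Pgam1* and *Gapdh* have pseudogene copies in mammals, and how reads that match several places were counted is not given in the sources used here.

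The forms typical of red cells and those common in leukocytes were set side by side as ratios of TPM within each library. These ratios do not depend on the scaling between libraries and are given as a description. Only *Pklr* to *Pkm* compares isoenzymes of the same step. The other ratios set enzymes of different steps side by side, and *Eno1* is widely expressed, so they do not describe a switch of isoenzyme. The ratio of *Pklr* to *Pkm* had a median of 0.405 (range 0.235 to 0.572) in Cont, 0.945 (0.590 to 1.19) at 10 d and 4.36 (2.14 to 8.22) at 20 d, and the 3 conditions did not overlap. *Pklr* thus made up 28.3% (median) of the pyruvate kinase TPM in Cont, 48.4% at 10 d and 79.9% at 20 d. The ratio of *Hk1* to *Pkm* was 1.61 (1.19 to 2.55), 4.87 (3.34 to 6.19) and 20.1 (11.8 to 41.4), again without overlap. The last median was 11.9 without 20 d replicate 1 or 4. The ratio of *Bpgm* to *Eno1* was 819 (548 to 1389), 1422 (1201 to 1951) and 2665 (1583 to 3505), and neighbouring conditions overlapped. The ratio of *Pklr* to *Eno1* was 0.657 (0.441 to 1.27), 1.05 (0.788 to 1.27) and 1.85 (1.30 to 2.40), where Cont and 10 d overlapped and 20 d lay above both. The change of these ratios came with falling *Pkm* and *Eno1*, whose summed TPM had medians of 4.08, 2.01 and 0.708, and with TPM of the red cell forms that overlapped between conditions.

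**Figure D3:**
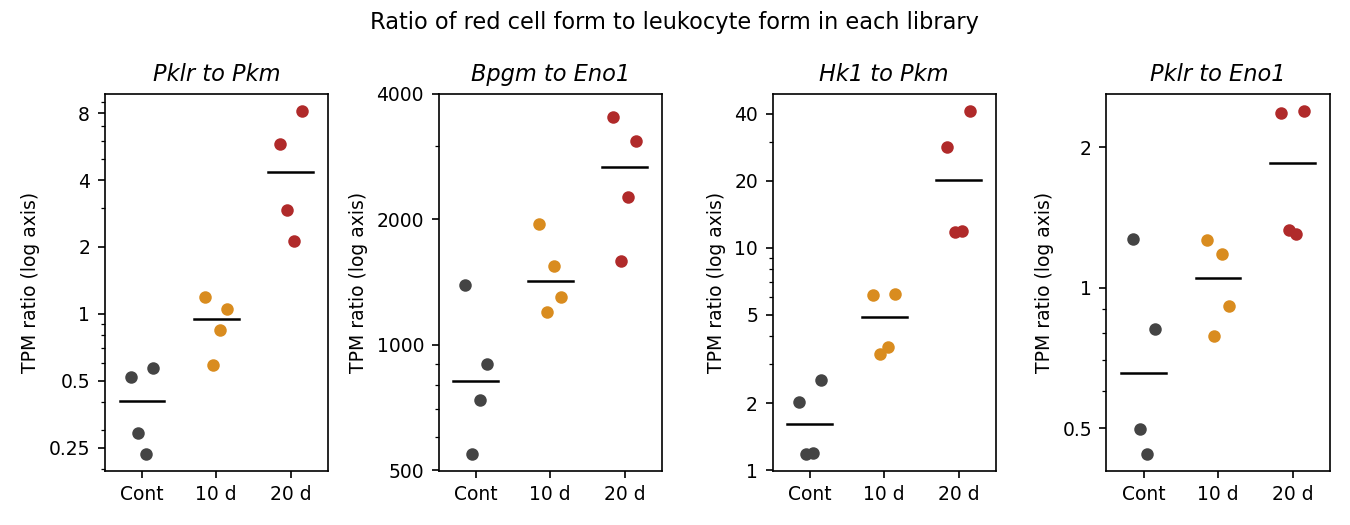
Ratio of the TPM of a form typical of red cells to that of a form common in leukocytes in each library. The y axes are logarithmic with a scale for each ratio, for Cont, 10 d and 20 d. Points are libraries and bars are medians. Only *Pklr* and *Pkm* are isoenzymes of the same step. The ratio of *Pklr* to *Pkm* lies between 0.235 and 0.572 in Cont and between 2.14 and 8.22 at 20 d.

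Within other isoenzyme families the median shares moved by fewer percentage points. *Hk1* made up 94.5%, 98.8% and 99.6% (medians in Cont, 10 d and 20 d) of the summed TPM of *Hk1*, *Hk2* and *Hk3*. This share had little room to rise. It was 87.9% to 95.7% in Cont, 97.5% to 99.0% at 10 d and 97.99% to 100% at 20 d. All stored libraries thus lay above all Cont libraries. *Eno1* made up 83.7%, 81.8% and 79.0% of the enolases, with overlapping libraries. *Aldoa* made up 97.96% or more of the aldolases in every library. *Pfkl* made up 73.6%, 70.9% and 87.1% of the phosphofructokinases, on few counts.

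The changes of *Bpgm* and *Hk1* were unequal over both intervals of storage. The change from 10 d to 20 d minus that from Cont to 10 d was -0.60 for *Bpgm* (SE 0.13, adjusted p = 0.00906) and -0.68 for *Hk1* (SE 0.14, adjusted p = 0.00721) in edgeR's quasi-likelihood test, and these 2 of the 9 genes were called lower, beside 5.57% of all genes tested called lower, 0.429% higher and 6.0% in either direction. For *Bpgm* the difference did not pass without 10 d replicate 3 (adjusted p = 0.0552). Neither was called by library size alone or with the 20 most abundant genes left out of the library size. For *Pkm* the difference was -1.20 (SE 0.53, adjusted p = 0.227), which did not pass.

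Of the other genes of glucose metabolism, 32 were listed, 29 had a row and 20 were tested. At 10 d 1 rose and 5 fell, at 20 d 1 rose and 10 fell, and from 10 d to 20 d 0 rose and 1 fell, beside 7.86% higher and 5.68% lower, 12.8% and 21.1%, and 3.38% and 12.6% of all genes. By library size alone 0 rose and 9 fell at 10 d and 0 rose and 10 fell at 20 d. Of all 8382 genes tested, that scaling called 98 higher and 1899 lower at 10 d, and 99 higher and 2911 lower at 20 d. The median log2 fold changes of these 20 genes were then -0.63 and -1.04, beside -0.35 and -0.39 over all genes tested. By TMM their medians were -0.30 at 10 d, -0.66 at 20 d and -0.38 from 10 d to 20 d. The lactate step held 3 of the falls at 20 d. *Ldha*, a subunit of lactate dehydrogenase, measured 1.17 ± 0.173 TPM in Cont, 0.384 ± 0.122 at 10 d and 0.0858 ± 0.0580 at 20 d. It fell by 1.23 on the log2 scale at 10 d (adjusted p = 0.008995), by 3.29 at 20 d (adjusted p = 1.9e-06) and by 2.06 from 10 d to 20 d (adjusted p = 0.00102). *Ldhb*, the other subunit, had 49, 18 and 2 summed counts in Cont, 10 d and 20 d and was called lower at 20 d (adjusted p = 0.00700). *Slc16a3*, a lactate exporter, fell by 1.95 at 20 d (adjusted p = 9.8e-05).

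*Slc16a1*, the lactate carrier also found in the red cell membrane, was the 1 gene of these lists that rose, by 0.40 at 10 d (adjusted p = 0.0470) and 0.54 at 20 d (adjusted p = 0.00343) by TMM, while its TPM was 3.09 ± 0.284, 3.15 ± 0.256 and 3.22 ± 0.0436. By library size alone its value at 20 d was 0.17 (adjusted p = 0.209) and was not called. Nor was it with the 20 most abundant genes left out of the library size (0.26, adjusted p = 0.143). Of 22 alternatives 6 kept the call at 10 d, and DESeq2 did not (0.35, adjusted p = 0.0890). Its call at 10 d was lost without any one of 10 of the 12 libraries (adjusted p up to 0.158), the exceptions being Cont replicate 1 and 10 d replicate 3. *Pgam1*, a phosphoglycerate mutase, fell by 2.62 at 10 d (adjusted p = 0.00527) and by 3.00 at 20 d (adjusted p = 0.000944). *Gapdh*, a dehydrogenase of glycolysis, changed by 0.22 at 10 d and 0.08 at 20 d and did not pass.

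*Slc2a3*, a glucose transporter, fell by 2.36 at 20 d (adjusted p = 0.000499). *Hk2*, an inducible hexokinase, was called lower at 20 d (-2.26, adjusted p = 0.0357), but not without Cont replicate 2, 3 or 4 or 20 d replicate 1, 2 or 4 (adjusted p from 0.0568 to 0.0999). *Pfkfb3*, which makes the phosphofructokinase activator fructose 2,6-bisphosphate, fell by 1.88 at 20 d (adjusted p = 0.00610). In the pentose phosphate pathway, which supplies NADPH, *Pgd* fell by 0.64 at 10 d (adjusted p = 0.00602) and by 1.04 at 20 d (adjusted p = 3.8e-05), *Rpe* fell by 1.35 at 20 d (adjusted p = 0.00275) and *Tkt* fell by 0.39 at 20 d (adjusted p = 0.00705), which did not pass with no filter on low counts (-0.33, adjusted p = 0.113). *Taldo1*, at 20.6 ± 4.39 TPM in Cont the most abundant gene of these lists, changed by 0.22 at 20 d and did not pass. At 10 d *Slc16a3* (-1.06, adjusted p = 0.0195) was not called without Cont replicate 2 or 3 or 10 d replicate 1 or 4 (adjusted p from 0.0512 to 0.0797), and *Pfkfb3* (-1.50, adjusted p = 0.0411) was not called without Cont replicate 2 or 3 or 10 d replicate 1, 2 or 3 (adjusted p from 0.0522 to 0.132).

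**Figure D4:**
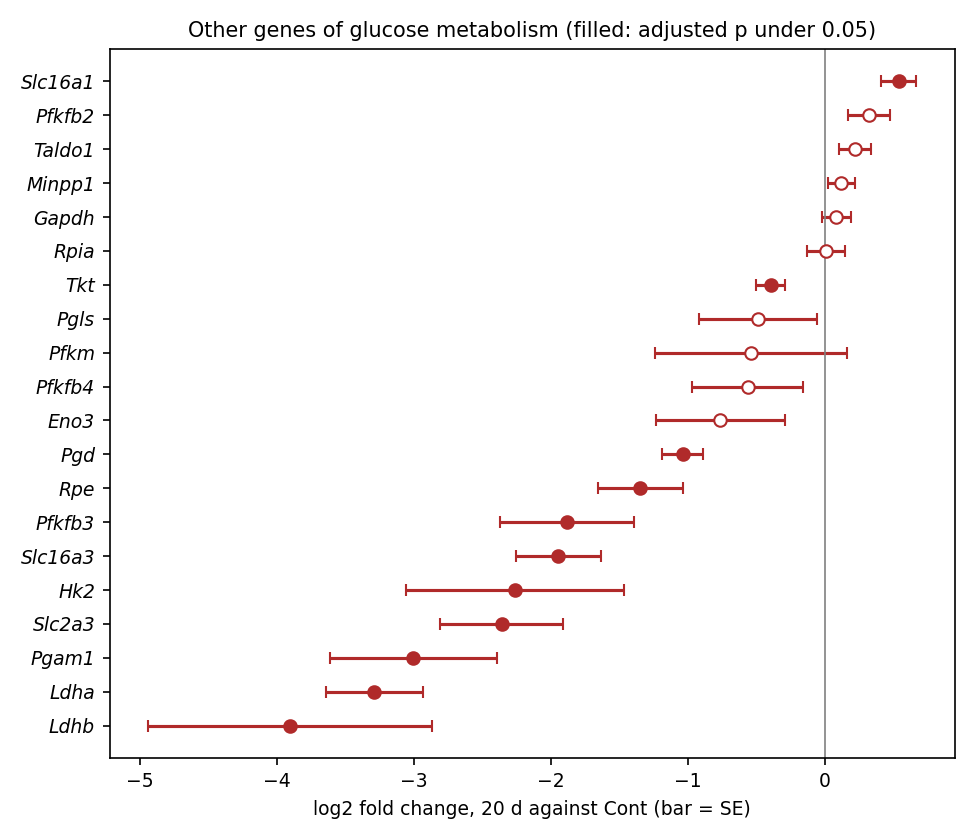
Log2 fold change at 20 d against Cont (x axis, scaled by TMM, bars of 1 SE) of the 20 other genes of glucose metabolism that were tested; filled points have an adjusted p under 0.05. *Slc16a1* is the 1 filled point above 0 and 10 filled points lie below 0.

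Neutrophil, monocyte, T cell and common leukocyte markers were lower in stored blood, while some B cell and most platelet markers tested were called higher at 10 d. Of all genes tested, 7.86% were called higher and 5.68% lower at 10 d, and 12.8% higher and 21.1% lower at 20 d. The summed TPM of 15 neutrophil markers was 112 to 210 in Cont, 18.2 to 62.5 at 10 d and 3.45 to 7.30 at 20 d, and all 9 markers tested fell at 20 d, with *Ltf*, *Lcn2* and *Mpo* at 0 in Cont and 20 d. The 12 T cell markers summed to 4.79 to 6.18 TPM in Cont, 0.727 to 1.001 at 10 d and 0.0334 to 0.206 at 20 d, where *Cd3d* and *Cd5* were at 0. The 9 monocyte markers went from 43.8 to 95.6 TPM in Cont to 3.55 to 19.2 at 10 d and 1.15 to 3.02 at 20 d. B cell markers (11 genes) were at 4.03 to 6.31, 5.26 to 6.81 and 0.143 to 0.467 TPM, and platelet markers (12 genes with a row) at 1.32 to 2.43, 4.84 to 6.68 and 0.993 to 1.26 TPM. At 10 d 3 of 9 B cell and 6 of 8 platelet markers tested were called higher and 0 lower, and at 20 d 8 B cell markers and 1 platelet marker were called lower and 0 higher. All 8 T cell and all 3 monocyte markers tested fell at both times, and 5 of 9 neutrophil markers fell at 10 d. Of the 6 common leukocyte markers 5 fell at 10 d and at 20 d, and their summed TPM of 174 to 323 in Cont, 182 to 230 at 10 d and 147 to 166 at 20 d was mostly *Cd52*, which was the exception (-0.13 at 20 d, adjusted p = 0.392). The most abundant markers of the lists at 20 d changed by -3.94 for *Coro1a*, -4.83 for *S100a9*, -4.77 for *S100a8*, -4.61 for *Lyz2*, -3.33 for *Fcgr1a*, -6.81 for *Tcf7*, -4.27 for *Cd79a* and -4.77 for *Ighm*, all called, and by 0.11 for *Pf4* and 0.21 for *Clec1b*, which were not. *Cd3g* had too few counts to be tested. The part of these cells in the falls of *Pkm*, *Eno1*, *Gpi*, *Aldoa* and *Tpi1* was not tested. Erythroid markers (17 with a row) summed to 1457 to 2211, 1689 to 2019 and 1491 to 1817 TPM. Of these, 14 rose and 0 fell at 10 d and 13 rose and 1 fell at 20 d by TMM. By library size alone 2 rose and 0 fell at 10 d, and 1 rose and 1 fell at 20 d. Of all 8382 genes tested, that scaling called 98 higher and 1899 lower at 10 d, and 99 higher and 2911 lower at 20 d. *Bpgm* and *Hk1* likewise lost their call by library size alone. The erythroid marker *Ahsp* rose by 0.42 at 20 d by TMM.

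The genes whose pattern over the 12 libraries was most like each isoenzyme were found by the Euclidean distance between Z-scores of log2 CPM, among 1355 genes with a mean CPM of at least 5. Nearest to *Bpgm* were *Tax1bp1* (distance 0.523), *Ncoa4_1* (0.543) and *Fech* (0.617), beside a median of 3.41 over all candidates. Nearest to *Hk1* were *Mical2* (0.820), *Slc43a1* (0.944) and *Supt4h1* (0.949), beside a median of 3.40. Nearest to *Pkm* were *Ptprc* (0.751), which encodes the leukocyte antigen CD45, *Ddx5* (0.810) and *S100a9* (0.905), a neutrophil protein, beside a median of 5.89. Nearest to *Eno1* were *Slfn4_1* (1.53), *Jmjd1c* (1.55) and *Ptprc* (1.71), beside a median of 5.69. For *Pklr* the nearest were *Atp5f1b* (1.88), *Wbp1* (1.88) and *Timm17b* (1.89) beside a median of 3.49. All genes of a library share its depth and scaling.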

How the data were processed

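Total RNA of purified RBCs was sequenced by the authors in 12 libraries, mapped to the rat genome mRatBN7.2 with CLC Genomics Workbench, and counted per gene. The counts were deposited without normalization, and the deposited TPM values were computed by the authors per gene length and to the same sum in each library. Of the counts from 2 to 20, 69.3% were even, so reads rather than read pairs seem to have been counted. The authors' columns of fold changes and p-values hold their own tests and were not used, and 24 columns of RPKM and of CPM values were not used.

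The software was edgeR 4.0.16 under R 4.3.3. Genes were filtered by filterByExpr, and TMM factors reached from 0.859 in a 10 d library to 1.30 in a Cont library. The quasi-likelihood F-test was fitted to all libraries with storage condition as the only term, and p-values were adjusted by Benjamini-Hochberg over 8382 genes. A prior count of 2 was added for log2 CPM. The script was tested on simulated data. Alternatives were other scalings, other filters, the likelihood ratio test, DESeq2 1.42.0, the replicate number as a block and leaving out each library. Halved counts and library size without the 20 most abundant genes were added after seeing the data. Tables and plots were made with matplotlib 3.10.9, numpy 2.4.6 and pandas 2.3.3 under Python 3.11.15.

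The members and gene lists were chosen with earlier results of these data known. The genes named are all members, the other listed genes of glucose metabolism called in at least 1 pair of conditions (at most 12), the 2 most abundant markers of each list and the 3 genes most like each of 5 isoenzymes. *Gapdh*, *Taldo1* and markers at 0 are named outside this rule, after their values were seen. Of the markers this rule names, 1 is not reported here.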

Additional observations from a re-analysis of the deposited data

Results flagged for a closer look

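In the groups of 4 libraries behind the TPM levels and ratios, 72 groups were checked for 1 library far from the other 3, of which chance gives about 1 in 20, and 5 were found. *Gpi* was at 0.176 TPM in 10 d replicate 1, below 0.409 to 0.442 in the other 10 d libraries. *Aldoa* was at 3.33 TPM in 20 d replicate 4, above 2.26 to 2.41 in the others. *Ldha* was at 1.42 TPM in Cont replicate 2, above 1.04 to 1.10. *Pgam1* was at 0 TPM in 20 d replicate 2, below 0.0860 to 0.0995. *Ldhb* was at 0.0349 TPM in 20 d replicate 4 and at 0 in the others, where it rests on 2 counts in all.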

How the results depend on the processing

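The falls of *Pkm*, *Gpi*, *Aldoa* and *Tpi1* at 20 d against Cont kept their direction and their call under every alternative that could be fitted, and that of *Eno1* under all but 1. The rises of *Bpgm* and *Hk1* at both times kept theirs under all but library size alone. Leaving out a library kept 398 of the members' log2 fold changes on the same side of the threshold and in the same direction, made 13 pass and 9 fail, and reversed 12. The other settings kept 306, made 24 pass and 9 fail, and reversed 9. The cause of these changes was not tested. Depth limits *Tpi1*, *Gpi* and *Pfkl* most, with 28, 44 and 78 summed counts at 20 d.

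At 10 d against Cont, 1135 genes were called, 1997 by library size alone, 1762 without the 20 most abundant genes in the library size, and 739 to 1320 with a library left out. Of the members 2 were called (both higher), 4 by library size alone (0 higher and 4 lower), 4 (2 higher and 2 lower) with DESeq2 size factors in edgeR, no filter, the likelihood ratio test, DESeq2, halved counts and the replicate block, 5 without the 20 most abundant genes, and 2 to 4 with a library left out. With at least 1 CPM in 4 libraries, 1019 genes were called at 20 d against Cont, 677 at 20 d against 10 d and 218 among the 3 conditions. The count among the 3 conditions was 514 as reported, 1292 by the likelihood ratio test and 1023 with the replicate block. It was 1521 with no filter and 1270 by DESeq2, both with 21531 genes entered, and 252 to 601 with a library left out. Members called among the 3 conditions were 1 by library size alone, 1 of the 6 tested at 1 CPM, and 1 to 4 with a library left out. Members called from 10 d to 20 d were 1 to 3 with a library left out. For the difference between the intervals, 0 members were called by library size alone or without the 20 most abundant genes and 1 to 2 with a library left out, and the count of genes was 883 with the replicate block and 273 to 518 with a library left out.

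None of the reversed values was called. At 20 d against Cont, *Pklr* was -0.0023 by library size alone, and *Pfkl* was 0.0024 with no filter and -0.23 to 0.12 with a library left out. At 20 d against 10 d, *Pklr* was -0.0044 by library size alone, -0.0052 at 1 CPM and -0.051 to 0.12 with a library left out. *Bpgm* was 0.035 with DESeq2 size factors in edgeR, 0.060 with no filter, 0.042 by DESeq2 and -0.040 to 0.024 with a library left out, *Hk1* was 0.00039 with no filter, and *Pgam1* was -0.79 to 0.022 with a library left out. For the difference between the intervals, *Aldoa* was 0.0076 by library size alone and *Tpi1* was -0.47 to 0.68 with a library left out. As ratios of CPM, *Hk1* to *Pkm* was 3.17, 9.56 and 39.5 in Cont, 10 d and 20 d, and *Pklr* to *Eno1* was 1.62 at 10 d and 2.87 at 20 d, since CPM is not corrected for gene length.

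Libraries with the same replicate number deviated together weakly, with correlations of 0.0167 to 0.2136, of which 5 of 12 were over 0.1, and a library correlated best with its own number in 20 of 24 comparisons. The study describes its samples as paired, but which rat a number stands for is not given in the sources used here. The main test therefore leaves the numbers out. All 12 same-number correlations were positive, and these and the best matches are a hint that the numbers may follow the rats. If they do, the main test ignores a pairing. With the replicate block, *Pkm* (-0.89, adjusted p = 4.2e-05) and *Gpi* (-0.999, adjusted p = 0.0245) at 10 d against Cont, *Eno1* (-0.76, adjusted p = 0.00826) at 20 d against 10 d and the difference between the intervals for *Pkm* (-1.23, adjusted p = 0.00272) passed edgeR's test, and 1566 genes were called at 10 d against Cont, 3214 at 20 d against Cont and 1800 at 20 d against 10 d.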

Other observations

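Several genes of glucose metabolism had too few counts to be tested. *Slc2a1*, a glucose transporter, had 54 summed counts in Cont, 9 at 10 d and 2 at 20 d. *Hk3*, a hexokinase of myeloid cells, had 65, 15 and 3 summed counts. *Pfkp*, the platelet type of phosphofructokinase, had 22, 6 and 0 summed counts, and *Tigar*, a fructose 2,6-bisphosphatase, had 11, 4 and 0. These genes were chosen after their values were seen, and their totals cover counting error only.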
